A study of Homo sapiens with 6 samples.

Results

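OLFML3, EDAR, DOK7, MEGF6, FXYD3 and SUSD2 are 6 genes selected on their RNA counts in these libraries, because each was much higher under both CBX8 hairpins than in control A549 cells. A549 is an established cell line from a human lung adenocarcinoma. They were found by matching each RefSeq transcript of the deposited table to its gene symbol and summing the transcripts of a gene. All 6 were present, among 28452 genes in all, and all 6 passed the filter on low counts that left 17115 genes to test. Their rise over control is how they were picked, so those values are given as a description without a test.

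RNA had been sequenced in 6 libraries, 2 in each of 3 groups. The shCBX8-2 and shCBX8-1 groups carried lentiviral short hairpin RNAs against CBX8, and the control group carried a control hairpin delivered in the same way. Cells with stable expression had been obtained after infection, so every group, control included, had been through lentiviral infection. The first number in the shCBX8 names is read here as the hairpin, which the labels do not spell out. No label says that libraries within a group were grown separately, so p-values measure the spread between these libraries, which may be technical. Levels are given as CPM, that is estimated read counts scaled to a library total of 1000000. That total was taken after the filter on low counts and adjusted between libraries by the TMM method.

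CBX8 is a chromobox subunit of Polycomb repressive complex 1, which binds chromatin carrying methylated histone H3 and keeps developmental genes silent in many cell types. The 6 genes belong to unrelated families. EDAR is the receptor for ectodysplasin A in the development of hair, teeth and sweat glands, and signals to NF-kappa-B through its adaptor EDARADD. DOK7 is the adaptor that activates the muscle kinase MuSK at the neuromuscular junction. OLFML3 is a secreted olfactomedin domain protein that in Xenopus scaffolds chordin and tolloid proteases. MEGF6 is a large protein with many epidermal growth factor repeats. FXYD3 is a small membrane protein that modulates the Na,K-ATPase. SUSD2 is a membrane protein with sushi and AMOP domains that binds galectin-1.

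The start regions of OLFML3, MEGF6 and DOK7 are shown because Polycomb complexes often sit at promoters with CpG islands, and because these genes cover the range from few to many CpG. Each is 300 bases from RefSeq (GRCh38.p14), from 250 before the annotated start to 50 after it, on the strand of the gene, with CpG dinucleotides in capitals. OLFML3 lies at chr1:113979224-113979523 (plus strand), MEGF6 at chr1:3611459-3611758 (minus strand), the upstream start of DOK7 at chr4:3463056-3463355 (plus strand) and an internal start of DOK7 at chr4:3484294-3484593 (plus strand).
OLFML3: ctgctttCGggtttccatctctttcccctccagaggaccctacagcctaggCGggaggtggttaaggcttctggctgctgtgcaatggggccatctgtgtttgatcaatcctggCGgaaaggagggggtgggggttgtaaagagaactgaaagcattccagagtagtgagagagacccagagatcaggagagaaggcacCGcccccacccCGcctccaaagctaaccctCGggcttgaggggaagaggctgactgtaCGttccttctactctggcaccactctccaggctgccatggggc
MEGF6: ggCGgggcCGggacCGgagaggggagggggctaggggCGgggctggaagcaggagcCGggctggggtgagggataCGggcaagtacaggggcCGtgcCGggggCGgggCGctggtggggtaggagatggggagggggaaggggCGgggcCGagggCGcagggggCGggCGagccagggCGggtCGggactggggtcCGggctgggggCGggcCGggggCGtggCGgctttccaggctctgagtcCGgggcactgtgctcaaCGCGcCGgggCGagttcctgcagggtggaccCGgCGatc
DOK7 upstream start: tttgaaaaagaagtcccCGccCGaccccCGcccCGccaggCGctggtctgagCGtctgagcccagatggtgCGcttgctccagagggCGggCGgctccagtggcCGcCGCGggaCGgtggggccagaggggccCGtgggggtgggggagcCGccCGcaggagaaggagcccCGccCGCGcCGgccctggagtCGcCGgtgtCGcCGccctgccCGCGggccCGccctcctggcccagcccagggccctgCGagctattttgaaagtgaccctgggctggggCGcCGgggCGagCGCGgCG
DOK7 internal start: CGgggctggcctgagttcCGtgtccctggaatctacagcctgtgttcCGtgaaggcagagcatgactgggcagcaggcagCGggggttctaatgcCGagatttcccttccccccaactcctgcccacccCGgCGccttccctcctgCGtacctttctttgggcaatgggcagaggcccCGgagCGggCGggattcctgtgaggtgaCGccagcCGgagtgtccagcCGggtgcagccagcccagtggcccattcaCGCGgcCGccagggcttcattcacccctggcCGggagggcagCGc

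The OLFML3 window held 7 CpG and 58.0% G and C, and the MEGF6 window held 29 CpG and 78.0% G and C. The upstream DOK7 window held 34 CpG and 76.7% G and C, against 19 CpG and 67.3% at the internal start. Over all 35116 RefSeq windows of this length the median was 14 CpG, with quartiles of 4 and 28. OLFML3 thus lay below that median and MEGF6 and the upstream DOK7 window above the upper quartile. The GC box GGGCGG, searched on both strands, occurred 1 time in OLFML3, 6 times in MEGF6, 8 times at the upstream DOK7 start and 1 time at the internal one, and each match contains a CpG. It occurs in 45.0% of all windows. The letters of the CCAAT box (CCAAT), the TATA box (TATAAA) and the AP-1 site (TGANTCA), which occur in 34.6%, 11.5% and 7.7% of all windows on either strand, were not found in these 4 windows. These counts are descriptions of sequence. The RefSeq promoter table used here gave no entry under EDAR or SUSD2, and its FXYD3 window lies at the start of no FXYD3 transcript counted here, so those are not shown. The MEGF6 window lies at the start of NM_001409, the 1 MEGF6 transcript counted here, inside the wider span that RefSeq gives the gene.

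**Figure D1:**
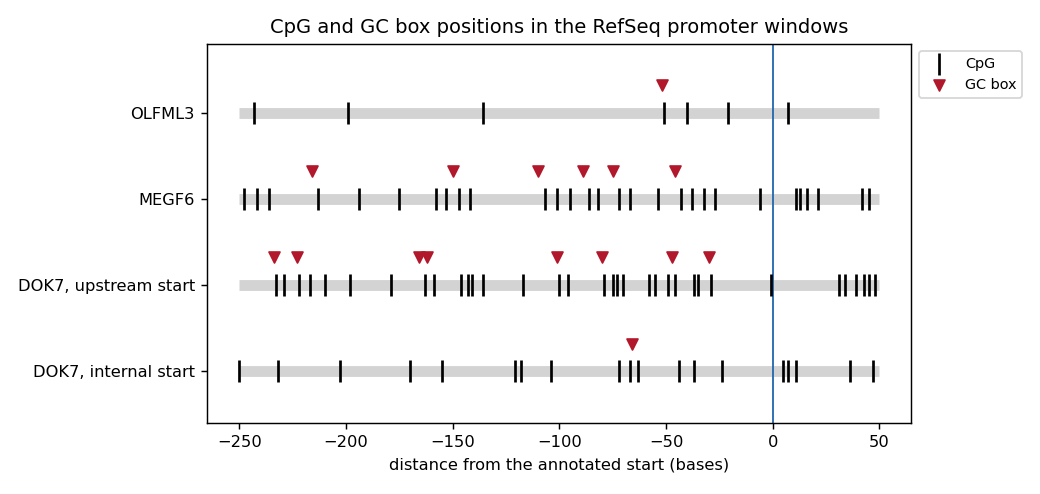
CpG positions (black ticks) and GC box matches (red triangles) in the 4 windows of 300 bases, by distance in bases from the annotated start (blue line). MEGF6 and the upstream DOK7 start hold 29 and 34 CpG spread over the window, and OLFML3 holds 7.

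Libraries were close in depth, with total estimated counts of 64197784 to 67169537 and 17985 to 18788 genes with a count above 0. The 11 A549 and epithelial markers, such as the keratins KRT8 and KRT18, were all detected and summed to 45800 and 41300 CPM in shCBX8-2, 36300 and 37400 in shCBX8-1, and 41900 and 41400 in control. Summed leukocyte, fibroblast, endothelial, skeletal muscle and basal epithelial markers stayed between 0.286 and 14.7 CPM in every library, and the leukocyte marker PTPRC was at 0 in all but 1. With each hairpin set against control alone, 3 of the 11 A549 and epithelial markers rose (KRT8, KRT18 and EPCAM) and 2 fell in shCBX8-2. In shCBX8-1 1 rose and 4 fell. Of all tested genes 12.7% were called in shCBX8-2 and 2.47% in shCBX8-1. In knockdown against control 0 of the 11 rose and 4 fell, CDH1 among them. Fibroblast markers summed to 6.24 and 5.55 CPM in shCBX8-2, 8.46 and 9.54 CPM in shCBX8-1, and 12.3 and 14.7 CPM in control, and 1 of 5 tested fell. Basal epithelial markers summed to 2.54 and 4.10 CPM in shCBX8-2, 2.51 and 2.08 CPM in shCBX8-1, and 1.10 and 1.75 CPM in control, with KRT14 at 0 throughout. Endothelial markers summed to 5.72 and 4.24 CPM in shCBX8-2, 2.73 and 4.12 CPM in shCBX8-1, and 2.74 and 1.88 CPM in control. In the basal epithelial and endothelial lists 0 of 2 tested were called by edgeR or DESeq2 in knockdown against control, with 1 in each at an unadjusted edgeR p under 0.05. In shCBX8-2 against control edgeR called 0 and DESeq2 called 1 in each list. There 2 basal epithelial and 1 endothelial marker had an unadjusted edgeR p under 0.05. For shCBX8-1 against control all these counts were 0. In knockdown against control 6.79% of all tested genes were called, and the part of these markers in the results was not tested. The shCBX8-2 libraries stood apart from each other, with a median absolute log2 difference between them of 0.24 over the tested genes, against 0.128 within shCBX8-1 and 0.129 within control. Deviations of genes from their mean over all 6 libraries followed the GC content of the transcript most in shCBX8-2. Spearman coefficients across 14048 genes were 0.376 in its replicate 1 and -0.264 in its replicate 2. These deviations hold differences between groups as well as between replicates. DOK7, MEGF6 and SUSD2 are GC-rich, with 66.5%, 67.8% and 63.7% G and C in their longest transcript, at percentiles 97.6, 98.7 and 92.9 of tested genes. The part of GC content in the values below was not tested.

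CBX8 itself was lower in both hairpin groups. It had 17.8 and 13.8 CPM in shCBX8-2, 7.79 and 7.70 CPM in shCBX8-1, and 24.6 and 26.3 CPM in control. The shCBX8-2 cells thus kept 61.9% and the shCBX8-1 cells 30.5% of the control mean. Against control the log2 fold change was -0.69 ± 0.15 in shCBX8-2 (SE, adjusted p = 0.0297) and -1.72 ± 0.16 in shCBX8-1 (adjusted p = 0.00708), by edgeR's quasi-likelihood test with Benjamini-Hochberg adjustment over all genes. In those comparisons 12.7% and 2.47% of all tested genes were called. Both calls ended when either control or either shCBX8-1 library was left out, with adjusted p of 0.0740 to 0.170 for shCBX8-2 and 0.106 to 0.145 for shCBX8-1. The shCBX8-2 minus shCBX8-1 difference in CBX8 was 1.02 ± 0.15 on the log2 scale (adjusted p = 0.0115), and it lost its call without shCBX8-1 replicate 1 (0.119) or replicate 2 (0.115).

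All 6 genes were higher in each of the 4 knockdown libraries than in either control, a pattern found in 13.2% of the tested genes and one that their selection made likely. Their log2 fold changes ranked between 67 and 189 among 17115 genes for the mean of both hairpins minus control. The lowest knockdown library exceeded the highest control by a factor of 1.83 (DOK7) to 5.98 (OLFML3). On a scale of CPM per kilobase of transcript, which allows levels to be compared between genes, the shCBX8-2 mean was 33.99 for MEGF6, 33.2 for SUSD2, 7.49 for DOK7, 2.78 for OLFML3, 1.65 for FXYD3 and 1.07 for EDAR. In control it was 11.3 for SUSD2, 8.35 for MEGF6, 1.76 for DOK7, 0.467 for FXYD3, 0.377 for OLFML3 and 0.176 for EDAR. MEGF6 and SUSD2 were therefore well expressed in control cells already, and OLFML3, EDAR and FXYD3 had only 28 to 57 counts per control library. In bulk RNA, more cells with a transcript and more transcript per cell cannot be told apart.

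**Figure D2:**
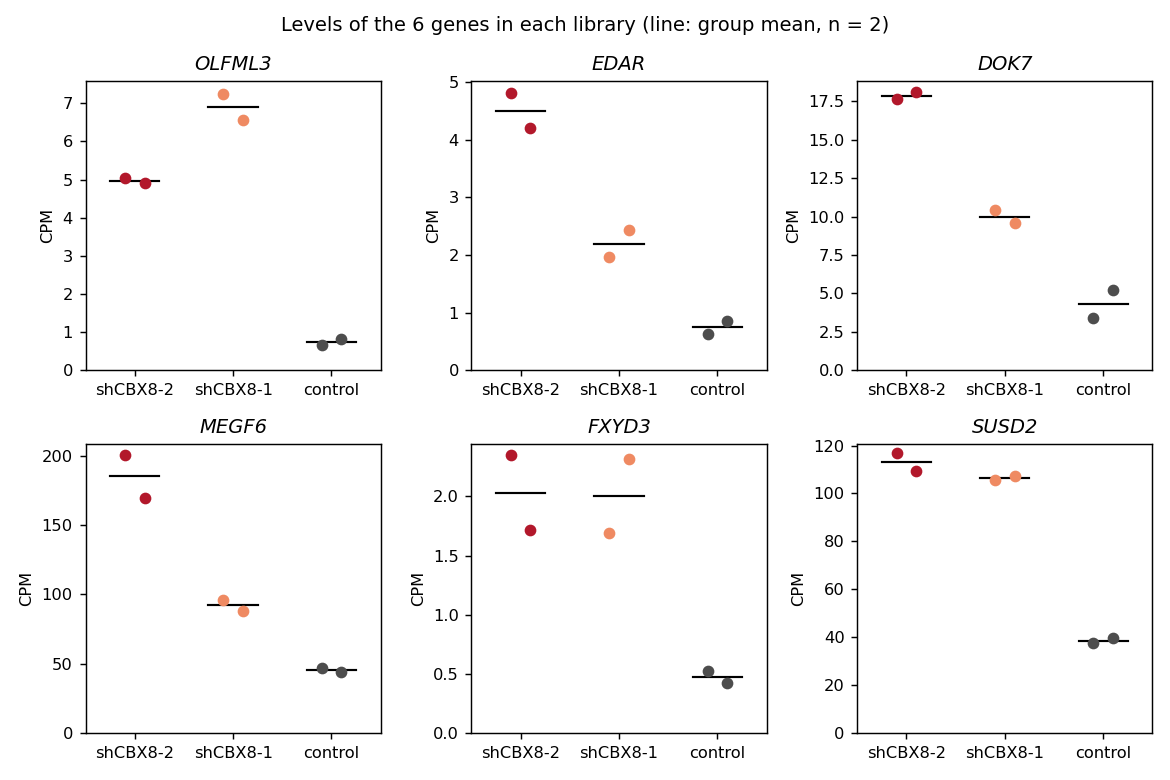
Level of each gene in CPM (linear axis from 0) in the 2 libraries of shCBX8-2, shCBX8-1 and control, with points for libraries and lines for group means. MEGF6, EDAR and DOK7 are highest in shCBX8-2, OLFML3 is highest in shCBX8-1, and SUSD2 and FXYD3 lie at like levels under both hairpins.

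OLFML3, the secreted olfactomedin domain protein (gene at chr1:113979474-113982253), had the largest fold of the 6. It had 5.03 and 4.91 CPM in shCBX8-2, 7.25 and 6.56 CPM in shCBX8-1, and 0.648 and 0.822 CPM in control. Both shCBX8-1 libraries were highest, both shCBX8-2 libraries came next, and the controls lay far below with no overlap. Group means were 4.97 ± 0.0821 CPM in shCBX8-2, 6.91 ± 0.487 CPM in shCBX8-1 and 0.735 ± 0.123 CPM in control (SD, n = 2 each). That is 6.76-fold and 9.40-fold of control in shCBX8-2 and shCBX8-1, from raw counts of 43 and 55 in control.

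EDAR, the ectodysplasin A receptor (chr2:108894471-108989220), had 4.81 and 4.20 CPM in shCBX8-2, 1.96 and 2.43 CPM in shCBX8-1, and 0.633 and 0.852 CPM in control. The order was the same in every library, shCBX8-2 above shCBX8-1 above control. Means were 4.50 ± 0.432, 2.19 ± 0.327 and 0.743 ± 0.155 CPM in shCBX8-2, shCBX8-1 and control (SD, n = 2 each), 6.06-fold and 2.96-fold of control under the hairpins.

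DOK7, the MuSK adaptor (chr4:3463306-3501482), had 17.7 and 18.1 CPM in shCBX8-2, 10.4 and 9.55 CPM in shCBX8-1, and 3.38 and 5.22 CPM in control. The groups did not overlap, and the controls differed from each other more than the libraries of either hairpin group did. Means were 17.9 ± 0.309 CPM in shCBX8-2, 9.98 ± 0.609 CPM in shCBX8-1 and 4.30 ± 1.30 CPM in control (SD, n = 2 each), or 4.16-fold and 2.32-fold of control. Because of that control spread, the log2 fold change of the mean of both hairpins, 1.64 ± 0.19 (SE), was 1.36 without control replicate 1 and 1.98 without control replicate 2.

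MEGF6, the protein of epidermal growth factor repeats (chr1:3487951-3624786), was the most abundant of the 6 in shCBX8-2. It had 201 and 170 CPM in shCBX8-2, 96.1 and 88.1 CPM in shCBX8-1, and 47.2 and 43.9 CPM in control. Each group was separate, with shCBX8-2 highest and control lowest. Means were 185 ± 22.0, 92.1 ± 5.64 and 45.6 ± 2.34 CPM in shCBX8-2, shCBX8-1 and control (SD, n = 2 each), which is 4.07-fold and 2.02-fold of control.

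FXYD3, the Na,K-ATPase modulator (chr19:35115823-35124324), was the least abundant by CPM. It had 2.35 and 1.72 CPM in shCBX8-2, 1.69 and 2.32 CPM in shCBX8-1, and 0.528 and 0.418 CPM in control. The hairpin groups overlapped fully and both lay above control. Means were 2.03 ± 0.447, 2.00 ± 0.448 and 0.473 ± 0.0773 CPM in shCBX8-2, shCBX8-1 and control (SD, n = 2 each), 4.30-fold and 4.23-fold of control.

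SUSD2, the galectin-1 binding membrane protein (chr22:24181487-24189106), had 117 and 109 CPM in shCBX8-2, 106 and 107 CPM in shCBX8-1, and 37.6 and 39.5 CPM in control. The hairpin groups lay next to each other, with a gap smaller than the difference between the shCBX8-2 libraries, and well above control. Means were 113 ± 5.31 CPM in shCBX8-2, 106 ± 1.13 CPM in shCBX8-1 and 38.5 ± 1.33 CPM in control (SD, n = 2 each), 2.94-fold and 2.76-fold of control.

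Whether the hairpins raised these genes to the same level was a separate question, since the selection asked only for a rise under both. MEGF6 was 2.01 times as high in shCBX8-2 as in shCBX8-1, EDAR 2.05 times and DOK7 1.79 times, while SUSD2 and FXYD3 differed little and OLFML3 was lower in shCBX8-2. For 4 genes, EDAR, DOK7, MEGF6 and SUSD2, both shCBX8-2 libraries lay above both shCBX8-1 libraries, as in 26.2% of tested genes. OLFML3 showed the opposite, as did 27.9% of tested genes. By the quasi-likelihood test, 1 of the 6, MEGF6, passed an adjusted p of 0.05, where 9.82% of all tested genes did, 4.05% higher and 5.77% lower in shCBX8-2. Its log2 difference was 1.01 ± 0.11 (SE, 95% interval 0.76 to 1.26, adjusted p = 0.00377). The call ended without shCBX8-1 replicate 1 (adjusted p = 0.0523) or replicate 2 (0.0609).

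EDAR, at 1.04 ± 0.26 (0.41 to 1.66, adjusted p = 0.0547), and DOK7, at 0.84 ± 0.21 (0.35 to 1.33, adjusted p = 0.0505), just missed the threshold. Both passed it with the DESeq2 Wald test, which called 2958 genes in this comparison where edgeR called 1681. With median-of-ratios scaling in edgeR DOK7 passed (adjusted p = 0.0484) and EDAR did not (0.0534). With no filter on low counts neither passed (0.0726 for EDAR and 0.0847 for DOK7). OLFML3 differed by -0.47 ± 0.19 (-0.93 to -0.02, adjusted p = 0.176). SUSD2 differed by 0.09 ± 0.08 (-0.10 to 0.27, adjusted p = 0.535), so a difference above 0.27 on the log2 scale lay outside its interval. FXYD3 differed by 0.02 ± 0.34, but its interval of -0.78 to 0.82 left room for a sizeable difference either way. The gene with the called difference, MEGF6, was higher where more CBX8 RNA remained, since CBX8 itself was higher in shCBX8-2 by 1.02. In the same comparison 8 of the 11 A549 and epithelial markers passed the test, 6 higher and 2 lower in shCBX8-2, and their part in these differences was not tested.

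**Figure D3:**
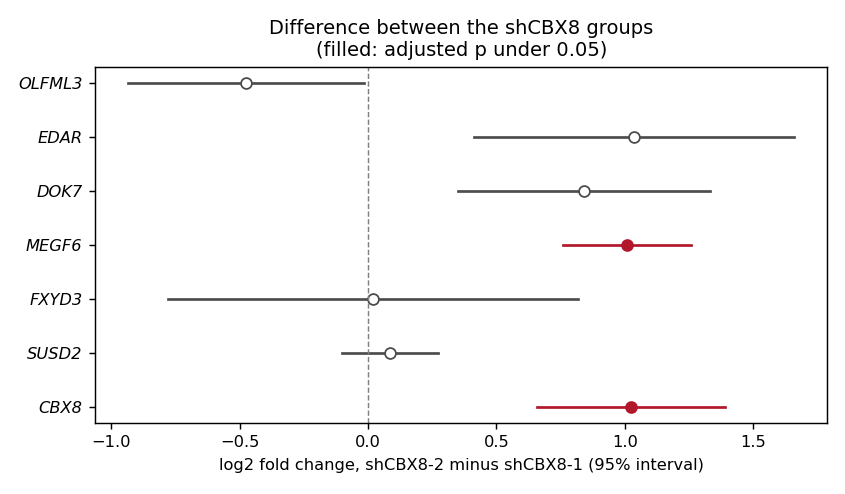
Log2 fold change of shCBX8-2 minus shCBX8-1 with its 95% interval for the 6 genes and CBX8, filled where the adjusted p was under 0.05. MEGF6 and CBX8 are filled at 1.01 and 1.02, EDAR and DOK7 lie to the right without passing, and OLFML3 is the only one to the left.

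EDAR, MEGF6 and SUSD2 were listed with 1 transcript each, and the other 3 genes with several. For OLFML3 the transcript that carried the counts was not the same in knockdown and control libraries. NM_020190 took 314 of 319 counts in shCBX8-2 replicate 1 and 272 of 309 in replicate 2, all 473 and 433 counts in shCBX8-1, and 0 in both controls. The control counts were given to other transcripts, 43 to NM_001286352 in control replicate 1 and 55 to NM_001286353 in control replicate 2. The controls thus differed from each other as well as from the knockdown libraries. The test of transcript shares by edgeR's diffSpliceDGE took in only 2 of these transcripts, NM_020190 and NM_001286353. NM_001286352 did not pass the filter on low counts, which left control replicate 1 with 0 counts in the test. For OLFML3 in knockdown against control it gave an adjusted p of 0.117, so the change in share did not pass. That result does not cover the counts given to NM_001286352. Of all 8427 genes tested for shares, 2.23% passed, and 2.48% passed between the hairpins. The OLFML3 result changed without control replicate 2, but a single control was left there. The filter was also run again, so the transcripts tested may not be the same.

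These 3 OLFML3 transcripts share 1780 bases, which is the whole of NM_020190 in GENCODE v29 (GRCh38), and NM_001286353 and NM_001286352 add 181 and 154 bases. Exon 1 ends at the same base in all 3 and exon 2 begins at 3 different bases, so the join tells them apart. The following lines give it as 30 bases of the plus strand of chromosome 1, with the last 15 bases of exon 1 in lower case and the first 15 of exon 2 in capitals.
NM_020190: ctagctgctttagagGAACGGCTGGCCCAG
NM_001286353: ctagctgctttagagGAGTGGAAGGGGATA
NM_001286352: ctagctgctttagagGTTGAGATCCGTAGC
Exon 2 starts at base 113980332 in NM_020190, 113980203 in NM_001286353 and 113979975 in NM_001286352. The annotated coding sequence is 1218, 1035 and 1158 bases long in the same order. At 43 and 55 counts per control library, the split between transcripts rests on few reads over a short stretch. The gene total sums the transcripts. Whether it depends on that split was not tested, since the counting step is not given.

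DOK7 counts came mainly from 2 transcripts with different starts. NM_173660 begins at base 3463311 and has 7 exons. NM_001256896 begins 21.2 kb further along the gene, at base 3484544, and lacks the first exons, which encode the amino-terminal part of the adaptor. NM_001256896 took 56.2% and 46.8% of DOK7 counts in shCBX8-2, 53.6% and 54.8% in shCBX8-1, and 53.1% and 25.2% in control. NM_173660 had 475 and 566 counts in shCBX8-2, 304 and 256 in shCBX8-1, and 105 and 255 in control, and NM_001256896 had 629 and 533, 364 and 345, and 119 and 88 counts in those libraries. The control libraries disagreed on NM_173660, and the transcript from the internal start was separate between all 3 groups. No change in shares was called for DOK7, with an adjusted p of 0.782 for knockdown against control and 1 for shCBX8-2 against shCBX8-1.

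FXYD3 counts were spread over 8 transcripts. NM_005971 had 93 and 16 counts in shCBX8-2, 72 and 83 in shCBX8-1, and 0 in both controls. NM_001136007 had 1 and 21 counts in shCBX8-2, 0 and 0 in shCBX8-1, and 25 and 6 in control. In these transcripts shCBX8-2 replicate 2 lay between the other knockdown libraries and the controls or among the controls. The share test covered the 4 transcripts that passed the filter on low counts. It gave an adjusted p of 0.0905 for knockdown against control and 0.391 for shCBX8-2 against shCBX8-1. NM_005971 and NM_001136011 were matched to the same GENCODE transcript, so the deposited split between them is uncertain.

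**Figure D4:**
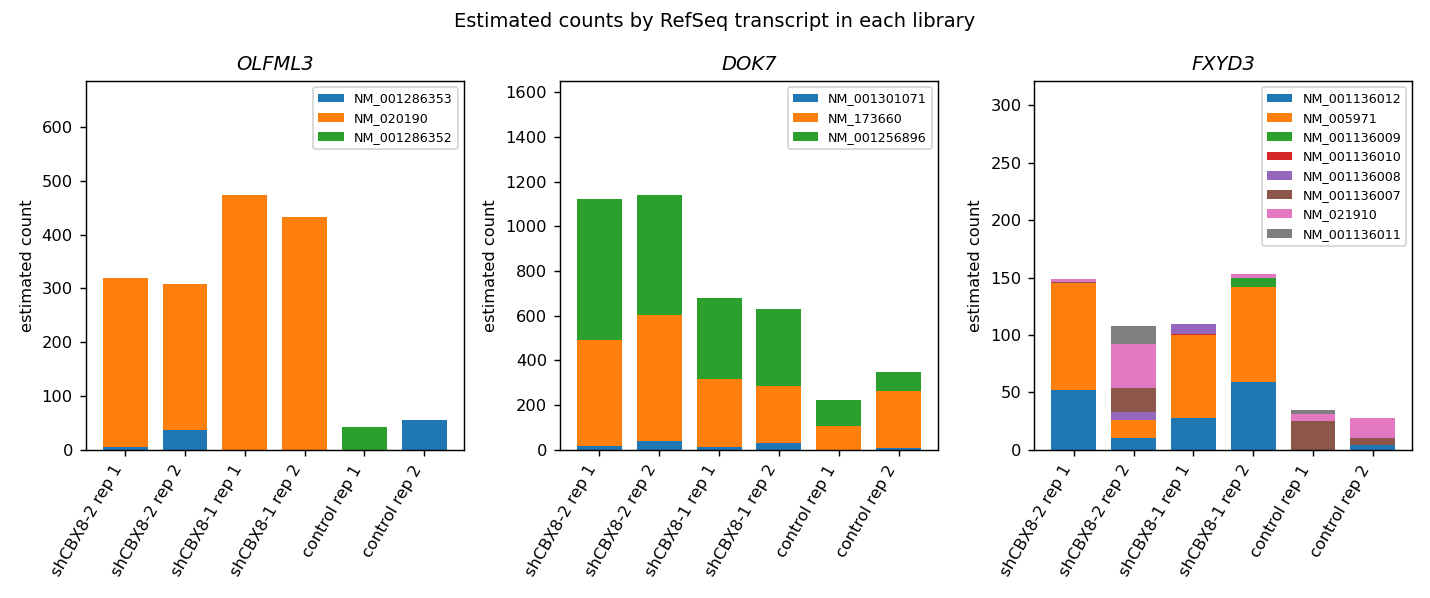
Estimated counts by RefSeq transcript in each library (linear axis from 0) for OLFML3, DOK7 and FXYD3, with the colours naming transcripts. NM_020190 of OLFML3 fills the shCBX8 bars and is at 0 in both controls, while the internal transcript NM_001256896 of DOK7 is present in every library.

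Polycomb complexes can cover neighbouring genes, so the 5 nearest protein-coding genes on each side of each of the 6 were read from the same test, whatever their values. Of 60 such genes, 43 were tested, and 2 rose and 0 fell in knockdown against control, or 4.65% against 6.79% of all tested genes, of which 3.31% rose and 3.48% fell. Their median log2 fold change was -0.01, beside -0.04 over all genes. The 2 that rose were SYT6, next to OLFML3, and ARHGEF16, next to MEGF6. SYT6, a synaptotagmin of vesicle fusion, starts 107 kb beyond OLFML3. It had 10.8 and 10.3 CPM in shCBX8-2, 16.8 and 15.9 CPM in shCBX8-1, and 4.42 and 4.87 CPM in control, and its log2 fold change of 1.499 ± 0.12 (SE) had an adjusted p of 0.00447. Like OLFML3, whose own difference did not pass (adjusted p = 0.176), it was highest in shCBX8-1. Its shCBX8-2 minus shCBX8-1 difference was -0.63 ± 0.13 (adjusted p = 0.0307). Of the 9 tested neighbours of OLFML3, SYT6 was thus lower in shCBX8-2, and 2 were higher. These were HIPK1 (0.65, adjusted p = 0.0405) and DCLRE1B (0.84, adjusted p = 0.0257).

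ARHGEF16, a guanine nucleotide exchange factor gene, lies 6.8 kb from MEGF6. Its levels were 46.4 and 38.0 CPM in shCBX8-2, 23.9 and 19.6 CPM in shCBX8-1, and 15.1 and 17.6 CPM in control. The log2 fold change was 0.89 ± 0.14 (SE, adjusted p = 0.0194). Set against control one hairpin at a time, it was 1.37 (adjusted p = 0.00488) in shCBX8-2 and 0.42 (adjusted p = 0.251) in shCBX8-1, and the difference between the hairpins was 0.95 ± 0.16 (adjusted p = 0.0168). MEGF6 too was higher in shCBX8-2 than in shCBX8-1. Leaving out either control or either shCBX8-1 library ended the calls of the mean of both hairpins against control, with adjusted p up to 0.0973 for SYT6 and 0.182 for ARHGEF16, and all signs kept. The shCBX8-2 call of ARHGEF16 ended without control replicate 1 (0.0656) or replicate 2 (0.0600) and stayed without shCBX8-1 replicate 1 (0.0249) or replicate 2 (0.0251). Its call between the hairpins ended when any 1 of these 4 libraries was left out, with adjusted p of 0.0527 to 0.143, as did that of SYT6, at 0.0693 to 0.18.

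Other genes near the 6 were not called in knockdown against control. TPRG1L, 0.2 kb from MEGF6, had 44.0 and 40.1 CPM in shCBX8-2, 49.3 and 46.9 CPM in shCBX8-1, and 43.1 and 45.6 CPM in control, with a log2 fold change of 0.02 (adjusted p = 0.917). HIPK1, a kinase gene 1.6 kb from OLFML3, had 29.9 and 35.2 CPM in shCBX8-2, 22.5 and 19.0 CPM in shCBX8-1, and 28.1 and 24.2 CPM in control, with -0.01 against control (adjusted p = 0.971). LRPAP1, 2.1 kb from DOK7, changed by 0.12 (adjusted p = 0.422), CABIN1, 2.9 kb from SUSD2, by -0.09 (adjusted p = 0.551), and CCDC138, 9.0 kb from EDAR, by 0.38 (adjusted p = 0.151). LRPAP1, CABIN1, CCDC138 and TPRG1L were named after their values were seen, because they lie close by. Of the 43 genes, 4 rose and 1 fell in shCBX8-2 against shCBX8-1, 11.6% where 9.82% of all genes were called.

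**Figure D5:**
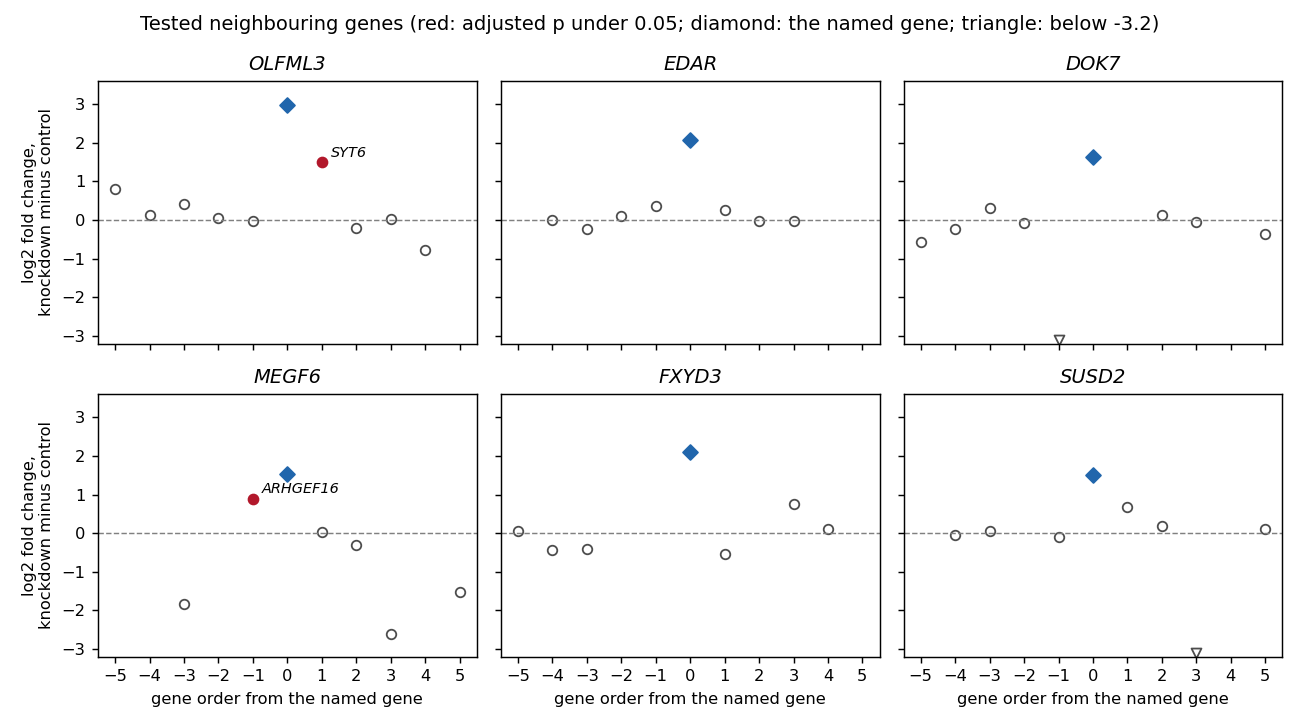
Log2 fold change of knockdown minus control for the tested genes among the 5 on each side (circles, in gene order) of each of the 6 genes (blue diamonds), red where the adjusted p was under 0.05 and with triangles for values below the axis. SYT6 beside OLFML3 and ARHGEF16 beside MEGF6 are the 2 red points among 43.

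The other genes of the same pathways and families were read from 8 lists. Of 94 listed genes 77 were tested, and 4 rose and 5 fell in knockdown against control, 11.7% against 6.79% of all tested genes. With each hairpin set against control alone, 5 rose and 7 fell in shCBX8-2, where 12.7% of all tested genes were called, and 5 rose and 5 fell in shCBX8-1, where 2.47% were called. List counts that name no hairpin are for knockdown against control. Among 19 tested genes of EDA and EDAR signalling 0 were called by edgeR, 2 had an unadjusted p under 0.05 and DESeq2 called 2. In shCBX8-2 against control 0 rose and 2 fell, in shCBX8-1 against control 0 rose and 1 fell, and between the hairpins 1 was higher and 2 were lower in shCBX8-2. The ligand EDA had 6.45 and 5.71 CPM in shCBX8-2, 5.97 and 6.26 CPM in shCBX8-1, and 5.26 and 7.58 CPM in control. The adaptor EDARADD had 3.20 and 1.32 CPM in shCBX8-2, 2.76 and 2.501 CPM in shCBX8-1, and 2.13 and 3.06 CPM in control. Ligand and adaptor thus overlapped between groups, although both were detected in every library.

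Of 10 tested genes of agrin, MuSK and DOK7 signalling, 0 rose and 1 fell in knockdown against control, and 1 rose and 1 fell in shCBX8-2 against control. The 1 that rose in shCBX8-2, named after its values were seen, was AGRN, which encodes the ligand agrin. It had 563 and 490 CPM in shCBX8-2, 429 and 404 CPM in shCBX8-1, and 410 and 427 CPM in control, with a log2 fold change in shCBX8-2 of 0.33 ± 0.08 (SE, adjusted p = 0.0491) and an adjusted p of 0.243 in knockdown against control. CHRNB1, the beta subunit of the muscle acetylcholine receptor, fell to 2.73 and 1.86 CPM in shCBX8-2 and 3.25 and 2.96 CPM in shCBX8-1, against 6.56 and 5.41 CPM in control (log2 fold change -1.16 ± 0.21, adjusted p = 0.0246). MUSK itself, the kinase that DOK7 activates, was at 0.169 CPM or less in every library and did not pass the filter. Its co-receptor LRP4 had 14.99 and 18.4 CPM in shCBX8-2, 17.3 and 18.1 CPM in shCBX8-1, and 21.7 and 21.9 CPM in control, and did not pass (adjusted p = 0.13). Skeletal muscle markers summed to 0.347 and 0.286 CPM in shCBX8-2, 0.521 and 0.288 CPM in shCBX8-1, and 0.347 and 0.583 CPM in control, with 5 of 8 at 0 in every library, MYOG among them. Among the other DOK adaptors 0 of 5 were called by edgeR or DESeq2 in knockdown against control, and 1 had an unadjusted p under 0.05. In shCBX8-2 against control 1 rose, DOK3 (0.80 ± 0.20, adjusted p = 0.0470), and between the hairpins 1 was lower in shCBX8-2, DOK4 (-0.73 ± 0.16, adjusted p = 0.0397), both named after their values were seen. The shCBX8-2 calls of AGRN and DOK3 ended when either control library was left out. That of DOK4 between the hairpins ended without shCBX8-1 replicate 2.

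Among the FXYD proteins and Na,K-ATPase subunits, 1 of 10 rose and 2 fell. FXYD2, the kidney gamma subunit of the pump, rose to 88.0 and 75.9 CPM in shCBX8-2 and 120 and 136 CPM in shCBX8-1, against 51.0 and 56.3 CPM in control (0.93 ± 0.10, adjusted p = 0.00764). FXYD2 overlaps a read-through transcript with its neighbour FXYD6, so its counts are uncertain to that extent. ATP1B1, the main beta subunit, fell to 284 and 315 CPM in shCBX8-2 and 280 and 273 CPM in shCBX8-1, against 406 and 398 CPM in control (-0.48 ± 0.06, adjusted p = 0.0116).

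Of 8 tested olfactomedin domain genes 0 rose and 1 fell. OLFM2 had 7.88 and 7.03 CPM in shCBX8-2, 7.19 and 7.99 CPM in shCBX8-1, and 15.9 and 20.3 CPM in control (-1.27 ± 0.14, adjusted p = 0.00789), the opposite direction to OLFML3. Of the BMP1, tolloid and chordin genes, 0 of 6 were called by edgeR or DESeq2 in knockdown against control, with 2 at an unadjusted p under 0.05. Among 12 genes of the MEGF and EGF repeat list 2 rose and 1 fell. CELSR1, a cadherin of planar cell polarity, rose to 179 and 167 CPM in shCBX8-2 and 187 and 181 CPM in shCBX8-1, against 133 and 136 CPM in control (0.41 ± 0.06, adjusted p = 0.0177). PEAR1, a platelet receptor, had 7.38 and 6.44 CPM in shCBX8-2, 18.5 and 14.3 CPM in shCBX8-1, and 6.59 and 4.26 CPM in control (0.97 ± 0.22, adjusted p = 0.0469), so its rise lay in shCBX8-1.

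Of 7 tested sushi and AMOP domain genes with the galectin partner of SUSD2, 1 rose. It was LGALS1 itself, which encodes galectin-1, with 547 and 485 CPM in shCBX8-2, 633 and 708 CPM in shCBX8-1, and 404 and 375 CPM in control (0.59 ± 0.08, adjusted p = 0.0127). SUSD2, which was selected for its rise, and its binding partner were both higher under each hairpin. Between the hairpins LGALS1 was lower in shCBX8-2 (-0.38 ± 0.09, adjusted p = 0.0478), where SUSD2 differed by 0.09 ± 0.08 (adjusted p = 0.535). The calls of all 9 list genes and both neighbours ended without control replicate 1, control replicate 2, shCBX8-1 replicate 1 or shCBX8-1 replicate 2, when 1, 1, 29 and 16 of all genes were called, and all 11 kept their sign. Without either shCBX8-2 library all 11 calls remained.

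The genes whose profile over the 6 libraries was most like that of each of the 6 were found by the root mean square difference of log2 CPM centred on the control mean, among 13662 genes. For SUSD2 they were MSLN, which encodes mesothelin, at a difference of 0.119, and RAET1E at 0.129. MSLN had 29.3 and 27.2 CPM in shCBX8-2, 22.7 and 22.0 CPM in shCBX8-1, and 9.26 and 8.50 CPM in control. For MEGF6 they were PLEK2 at 0.176 and KRT16 at 0.219, and for DOK7 PLEK2 at 0.21 and MMP28 at 0.218. PLEK2, a pleckstrin family gene, had 10.2 and 8.65 CPM in shCBX8-2, 5.27 and 5.65 CPM in shCBX8-1, and 2.29 and 2.90 CPM in control. For EDAR they were the cyclin gene CCNA1 at 0.265 and the metalloproteinase gene MMP28 at 0.32. Profiles of OLFML3 and FXYD3 had no gene as near. For OLFML3 they were MUC16, a membrane mucin, at 0.386 and the aminopeptidase gene ANPEP at 0.555, and MUC16 had 7.30 and 7.22 CPM in shCBX8-2, 5.92 and 5.81 CPM in shCBX8-1, and 0.935 and 1.03 CPM in control. Both MUC16 and ANPEP were higher in shCBX8-2 than in shCBX8-1, the reverse of the order of OLFML3. For FXYD3 they were MYB at 0.389 and SUSD2 at 0.458.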

How the data were processed

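RNA sequencing libraries of A549 cells were deposited as a table of estimated counts for each RefSeq transcript, without scaling to library size. Per the submitters' processing notes the authors used HISAT2 2.2.1, StringTie 2.2.1 and DESeq2 1.34.0 with the hg38 build. The role of each tool, the counting step, its strand setting and its annotation are not given in the sources used, so reads of overlapping genes may be divided. The values were whole numbers, so rounding changed nothing.

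Of 84787 transcripts, 83963 were matched to genes by the RefSeq table (GRCh38.p14) and 357 by GENCODE v29. The other 467 were kept as entries of their own. Transcripts marked as repeated accessions (12094) held 2.89 to 3.17% of counts and included none of the 6 genes. Counts were summed per gene, filtered with filterByExpr (minimum count 10, minimum total 15), scaled by TMM and fitted in R 4.3.3 with edgeR 4.0.16, using the quasi-likelihood test with 3 groups over all 6 libraries and 3 residual degrees of freedom. P-values are two-sided and adjusted by Benjamini and Hochberg over 17115 genes, with a threshold of 0.05. Standard errors were derived from the F statistic, and 95% intervals used 6.85 degrees of freedom. The biological coefficient of variation was 19.2%. Transcript shares were tested with diffSpliceDGE. Alternatives, including DESeq2 1.42.0 and limma 3.58.1, are described in the closing section. The code was tested on simulated data.

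The members and lists were chosen with earlier results of these data known. Other genes were named by rule: up to 4 per list with the smallest p past the threshold, neighbours past it in any contrast, and the 2 most like profiles per gene among those with a mean of at least 1 CPM (prior count 2). Same-numbered libraries did not deviate together (correlations of -0.00992, -0.0171 and 0.0164), so no block was used. Some genes that this rule would name are not reported here, and they stay in the counts over lists.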

Additional observations from a re-analysis of the deposited data

Results flagged for a closer look

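All of these differ between the hairpins by the test of the difference itself, shCBX8-2 minus shCBX8-1 on the log2 scale, with an adjusted p under 0.05 in edgeR's quasi-likelihood test. CBX8 differed by 1.02 and MEGF6 by 1.01, both higher in shCBX8-2. Among neighbours, DCLRE1B (0.84), HIPK1 (0.65), both near OLFML3, and ARHGEF16 (0.95), near MEGF6, were higher in shCBX8-2, and SYT6 was lower (-0.63). DCLRE1B, a DNA repair nuclease gene, had 15.5 and 20.7 CPM in shCBX8-2, 10.1 and 10.1 CPM in shCBX8-1, and 13.3 and 12.7 CPM in control. DDT, near SUSD2, differed by 0.35, and its counts are uncertain because of its near-identical copy DDTL. Among list genes, FXYD2 (-0.65), PEAR1 (-1.25) and LGALS1 (-0.38) were lower. In each of these 10 the call was lost when shCBX8-1 replicate 1 or replicate 2 was left out. It was also lost without either control for DCLRE1B, HIPK1, SYT6, ARHGEF16, DDT and LGALS1. The adjusted p over the 6 left-out libraries reached 0.281 for HIPK1 and 0.0609 for MEGF6.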

How the results depend on the processing

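Signs of the 6 genes against control held under every alternative run, which their selection for that rise made likely. With the DESeq2 Wald test, 2441 genes were called for knockdown, 1482 for shCBX8-1 and 3560 for shCBX8-2 against control (1162, 423 and 2169 in edgeR), and 2958 between the hairpins (1681). It called 4 and 11 neighbours and 14 and 21 list genes in knockdown against control and between hairpins, and 3 of the 6 genes between hairpins. Median-of-ratios scaling called 2 of the 6 there, and no filter called 3 neighbours. With only the libraries compared, calls were 2426, 995 and 638 for shCBX8-1, shCBX8-2 and the hairpin difference, with 2 of the 6, 1 neighbour and 7 list genes in the last. The replicate block called 696, 173, 1684 and 1082 genes, 2 neighbours between hairpins, and 70 genes and 17 transcripts by shares for knockdown and 88 and 10 between hairpins. It changed no call among the 6. Same-numbered libraries share only a number. Share tests by limma called 118 genes and 174 transcripts for knockdown and 94 and 156 between hairpins (188 and 64, 209 and 39 in edgeR).

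Leaving out 1 library at a time gave 1 to 4467 calls for knockdown, 0 to 2327 for shCBX8-1, 139 to 5515 for shCBX8-2 and 126 to 5104 between hairpins. List genes called ran from 0 to 21 and 0 to 26, neighbours from 0 to 9 and 0 to 18, the 6 genes between hairpins from 0 to 3, and share calls from 153 to 273 genes and 9 to 61 transcripts, and 178 to 321 and 19 to 43. The cause was not tested. The hairpin difference of FXYD3 turned negative with no filter (-0.00800), without repeated accessions (-0.00699), with only the libraries compared (-0.00953) and, its values with 1 library out ran from -0.22 to 0.24, at -0.00820 and -0.00821 without a control. With 2 libraries a group, and control counts of 28 to 57 for OLFML3, EDAR and FXYD3, precision is limited.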
